A study of Homo sapiens with 4 samples.

Results

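The integrated stress response genes examined here were 10 of the 28412 genes in the deposited expression table of a leukemia cell line in which LDB1 was knocked down. They were taken by gene name and comprised the eIF2 kinases EIF2AK1 and EIF2AK3, the transcription factors ATF4, ATF5 and DDIT3, and the target or feedback genes ASNS, CHAC1, SESN2, TRIB3 and PPP1R15A. All 10 had a row in the table, and all 10 passed the filter of a mean of at least 1 FPKM, the fragments counted per kilobase of gene at a common library depth.

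In the integrated stress response, a kinase phosphorylates the translation initiation factor eIF2, which slows protein synthesis in general and favours the translation of a few mRNAs, ATF4 among them. The ATF4 protein then switches on genes of amino acid supply, tRNA charging, redox balance and cell death, and one of its late targets, PPP1R15A, guides a phosphatase back to eIF2. ATF4 is controlled largely at translation, so its mRNA level is not a reading of its protein. EIF2AK1 (HRI) responds to low heme and is abundant in cells of the erythroid lineage, and EIF2AK3 (PERK) is the kinase of the endoplasmic reticulum membrane.

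The libraries were made from total RNA of NB4, a human acute promyelocytic leukemia line. Cells had received their hairpin by lentivirus, either one directed at LDB1 (sh-LDB1) or a control (sh-NC), and the labels give the sh-NC cells the genotype control and no treatment and the sh-LDB1 cells the genotype LDB1 knockdown. There were 2 libraries per group. In the study's general protocol infected cells were selected with puromycin, and the labels do not say which of the 3 shRNAs designed for LDB1 was sequenced. Effects of an shRNA on transcripts other than LDB1 cannot be told apart from those of the knockdown here. LDB1 encodes an adaptor that joins LIM-domain and GATA factors in transcription complexes. No label says whether replicates came from separate cultures, so the p-values measure the spread between libraries, which may be technical.

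The labels were checked first. LDB1 was at 135.1 and 120.1 FPKM in sh-NC against 10.2 and 9.47 FPKM in sh-LDB1, which left 7.73% of the control mean. The reads recovered from the FPKM ranged from 14092671 to 16323890 per library. Over 13300 genes tested (limma on log2(FPKM + 1), Benjamini-Hochberg adjusted p below 0.05), 67.4% passed the threshold, 29.9% higher and 37.4% lower in sh-LDB1, and 84.6% had groups that did not overlap. The median log2 fold change of all tested genes was -0.08. Scaling each library to the same summed FPKM raised that median by 0.14, and the split of 3983 higher and 4978 lower genes became 4876 higher and 4047 lower.

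The cell type label was set against markers. Of 14 granulocytic markers listed for a promyelocytic line, 11 had values, and their summed level was 22.7 to 23.7 FPKM in sh-NC against 79.8 to 82.9 FPKM in sh-LDB1. SPI1 and LYZ were the most abundant of them. MS4A3 was listed at 0 in both sh-LDB1 libraries, NCF4 was listed at 0 in sh-NC replicate 1, and ELANE, the neutrophil elastase gene, was listed at 0 in all libraries but sh-LDB1 replicate 1. Of the granulocytic markers, 4 of the 9 tested (CD33, CEBPE, ITGAM and NCF4) averaged under 1 FPKM in one of the groups and so passed the filter through the other group, and MS4A3 was filtered out, so the filter bears on which markers could be counted. The other 5 tested all rose. Of the 4 set aside, CD33, ITGAM and NCF4 lay higher in sh-LDB1, and CD33 was not called. CEBPE lay lower, at 1.55 and 1.27 FPKM in sh-NC against 0.924 and 0.34 FPKM in sh-LDB1, and was not called. MS4A3 also lay lower in sh-LDB1, from 0.472 and 0.0971 FPKM in sh-NC. The 16 erythroid markers summed to 4188.9 and 4374.4 FPKM in sh-NC and to 390.3 and 354.1 FPKM in sh-LDB1, and the 11 tested that averaged at least 1 FPKM in both groups all fell, with a median log2 fold change of -3.20. HBZ, an embryonic globin gene, was the most abundant, at 1543.2 and 1600.2 FPKM in sh-NC against 58.9 and 61.3 FPKM in sh-LDB1, followed by HBA2, while EPB42 and HBE1 were the least abundant. EPB42 and AHSP were listed at 0 in sh-LDB1 replicate 1. The sh-NC libraries thus held high erythroid and low granulocytic marker levels for cells labelled promyelocytic. In bulk RNA, fewer cells of a type and less RNA per cell cannot be told apart. These marker levels moved with the group in every comparison reported here, and their part in the results was not tested.

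ASNS passed the filter only through sh-NC, so its direction was fixed in advance, though not whether it passed the threshold. Of the other 9 integrated stress response genes, 4 were higher and 5 lower in sh-LDB1 past the threshold, and none had overlapping groups. With 67.4% of all tested genes past the same threshold, 29.9% higher and 37.4% lower, and 84.6% without overlap, the count by itself does not set these genes apart. Their median log2 fold change was -0.25 without ASNS and -0.33 with it. Beyond the adjusted p, a change of more than 2-fold on the log2(FPKM + 1) scale was met by EIF2AK3 alone, which rose. With a pseudocount of 0.1 in place of 1, ATF5 and ASNS also fell by more than 2-fold. On the log2(FPKM + 1) scale 9.5% of all tested genes rose and 10.3% fell by that much, 19.8% in all. Relative to the median of all tested genes, the differences ran from -0.80 for EIF2AK1 and ASNS to 1.95 for EIF2AK3. Under both other scalings each of the 10 genes kept its sign, and PPP1R15A lost its call.

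**Figure D1:**
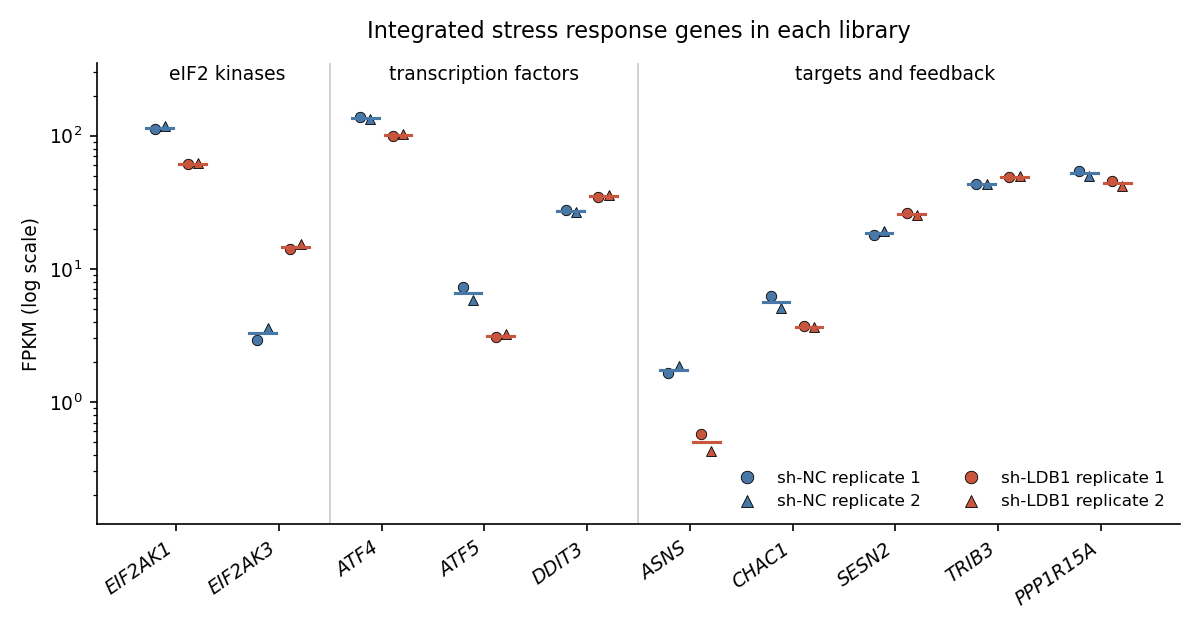
FPKM of the 10 integrated stress response genes (y axis, log scale) in each of the 2 sh-NC and 2 sh-LDB1 libraries, with 1 point per library and a bar at each group mean. EIF2AK3 shows the widest separation upward, from 3.28 to 14.6 FPKM, and ASNS the widest downward, from 1.75 to 0.502 FPKM.

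The order of the levels per length changed in part. In sh-NC the means ran from ATF4 (135.8 FPKM) through EIF2AK1, PPP1R15A, TRIB3, DDIT3, SESN2, ATF5, CHAC1 and EIF2AK3 to ASNS (1.75 FPKM). The neighbours ATF5 and CHAC1 overlapped there, at 7.32 and 5.81 FPKM against 6.22 and 5.04 FPKM. In sh-LDB1 the order was ATF4, EIF2AK1, TRIB3, PPP1R15A, DDIT3, SESN2, EIF2AK3, CHAC1, ATF5 and ASNS, with no overlap between neighbours. EIF2AK3 moved above ATF5 and CHAC1, and TRIB3 moved above PPP1R15A.

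The promoters were read next for DNA letters known for the stress factors, and sites elsewhere or spelled otherwise were not sought. RefSeq promoters of 300 bases (GRCh38.p14, from 250 before to 50 after the start) were searched on both strands for TGATGNAA, a form of the C/EBP-ATF composite element that ATF4 binds, and for TGACGTCA, the palindromic CRE. A promoter was found for 9 of the 10 genes, all but EIF2AK1. TGATGNAA was present in ASNS and CHAC1, 22.2% of the 9 genes, and in 4.46% of 27305 genes with a promoter. TGACGTCA was present in PPP1R15A and in 2.25% of those genes. Neither AGATAA nor TGATAA, forms of the GATA motif, was found on either strand in any of the 9, against 12.4% and 9.22% of all genes. With only 9 promoters, finding none does not set these genes apart from those shares. The following stretches are shown because they hold these matches, which are in capitals, and each is written 5′ to 3′ on the strand of the gene:
ASNS, chr7:97872458-97872487, minus strand: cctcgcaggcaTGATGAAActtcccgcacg
CHAC1, chr15:40953251-40953280, plus strand: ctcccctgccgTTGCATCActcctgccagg
PPP1R15A, chr19:48872352-48872381, plus strand: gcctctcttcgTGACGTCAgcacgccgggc
All of them lie before the RefSeq start and within an exon of some annotated transcript. The CHAC1 match is on the opposite strand. A match is a description of the letters and not of binding.

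To examine the kinases that start the response, EIF2AK1 and EIF2AK3 were compared first. They moved in opposite directions, EIF2AK1 down to about 54% of its control mean and EIF2AK3 up 4.47-fold. EIF2AK1 (ENSG00000086232; chromosome 7, 6022247 to 6059175, minus strand; GENCODE release 44 on GRCh38, as for all coordinates of genes) was at 111.3 and 117.2 FPKM in sh-NC against 61.1 and 62.3 FPKM in sh-LDB1. Both sh-LDB1 libraries lay far below both controls. The group means were 114.3 ± 4.17 and 61.7 ± 0.831 FPKM (SD, n = 2 each), a log2 fold change of -0.88 ± 0.0452 (SE, limma adjusted p = 0.000209). Without strand, reads over the 532 exon bases it shares with AIMP2 on the other strand cannot be assigned, and AIMP2 was at 16.8 to 23.9 FPKM. The erythroid marker sum fell in the same libraries, and its part in the EIF2AK1 value was not tested.

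EIF2AK3 (ENSG00000172071; chromosome 2, 88556741 to 88691518, minus strand) was at 2.93 and 3.62 FPKM in sh-NC against 14 and 15.3 FPKM in sh-LDB1. The lowest sh-LDB1 library was well above the highest control. The group means were 3.28 ± 0.484 and 14.6 ± 0.892 FPKM (SD, n = 2 each), and the log2 fold change was 1.87 ± 0.101 (SE, limma adjusted p = 0.000232). Only 1.9% of all tested genes had a larger log2 fold change. The number of reads behind it, 258 to 1256 per library, depends on the gene length assumed in recovering reads, while the ratio does not.

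The other kinases of eIF2 did not move past the threshold. EIF2AK2 (PKR), which senses double-stranded RNA, was at 7.57 and 8.77 FPKM in sh-NC against 8.39 and 8.14 FPKM in sh-LDB1 (limma adjusted p = 0.861). EIF2AK4 (GCN2), which senses uncharged tRNA, was at 3.63 and 3.82 FPKM and at 3.7 and 3.91 FPKM, in the same order (limma adjusted p = 0.793). Groups overlapped for both genes, and the sign of their difference turned when single libraries were left out.

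Because the kinases act on the same substrate, their levels were also put on a common base. EIF2AK1 held 88.7% and 87.8% of the summed kinase FPKM in sh-NC against 70.1% and 69.5% in sh-LDB1. EIF2AK3 held 2.34% and 2.71% in sh-NC against 16.1% and 17% in sh-LDB1. EIF2AK1 remained the most abundant kinase mRNA in all 4 libraries, while EIF2AK3 passed from the lowest share to the second. The summed level of the 4 kinases was 125.5 and 133.4 FPKM in sh-NC against 87.2 and 89.6 FPKM in sh-LDB1. No test was run on these shares. The plot of kinase shares gives them for each library.

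**Figure D2:**
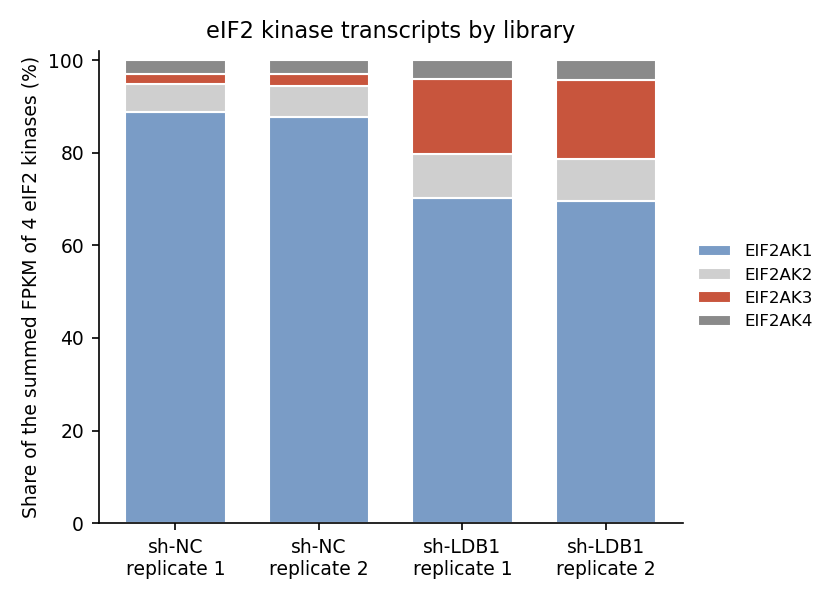
Share of the summed FPKM of the 4 eIF2 kinases (y axis, percent) held by each kinase in each library. EIF2AK1 takes 87.8% to 88.7% in sh-NC against 69.5% to 70.1% in sh-LDB1, and the EIF2AK3 segment widens from under 3% to 16.1% and 17%.

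Genes that act on the kinases were counted next. Of 6 kinase regulators, 5 were tested, 2 rose and 0 fell, with a median log2 fold change of 0.13 (29.9% of all tested genes rose and 37.4% fell). The count that rose was 4 with libraries scaled to the same summed FPKM, and 1 where GCN1 lost its call. DNAJC3, a cochaperone known to inhibit eIF2 kinases, was at 6.3 and 5.51 FPKM in sh-NC against 15 and 14.8 FPKM in sh-LDB1 (log2 fold change 1.20 ± 0.074 SE, limma adjusted p = 0.000317). GCN1, the activator of EIF2AK4, rose by 0.13 on the log2 scale (limma adjusted p = 0.0396), and lost this call with a replicate block (adjusted p = 0.0801), without a variance trend (0.105), without sh-NC replicate 2 (0.0706) and without sh-LDB1 replicate 1 (0.2) or 2 (0.148), in a range from 0.00284 to 0.2. NCK1, an adaptor that binds the eIF2 machinery, differed by 0.13 (limma adjusted p = 0.189), and passed the threshold when libraries were scaled to the same summed FPKM (adjusted p = 0.0265, in a range from 0.0265 to 0.531). IMPACT was under the filter, at 0.0126 to 0.0552 FPKM.

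The transcription factors were examined next, since they carry the response from eIF2 to the genes. ATF4 and ATF5 fell and DDIT3 rose. ATF4 (ENSG00000128272; chromosome 22, 39519695 to 39522683, plus strand) was at 138.1 and 133.5 FPKM in sh-NC against 99.4 and 102.7 FPKM in sh-LDB1. The groups were separated by a gap several times the distance between replicates. The group means were 135.8 ± 3.31 and 101.1 ± 2.31 FPKM (SD, n = 2 each), and the log2 fold change was -0.42 ± 0.0432 (SE, limma adjusted p = 0.00129). The fall was modest in this dataset, since 57.2% of all tested genes had a larger absolute change. It was smaller, at -0.25, when libraries were scaled to the same summed FPKM, with adjusted p-values from 1.39e-06 to 0.0192 over the 12 alternatives.

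ATF5 (ENSG00000169136; chromosome 19, 49928702 to 49933935, plus strand), a close relative of ATF4 that is likewise controlled at translation, was at 7.32 and 5.81 FPKM in sh-NC against 3.06 and 3.22 FPKM in sh-LDB1. Both sh-LDB1 libraries were below both controls, and the controls were the more spread. The group means were 6.56 ± 1.07 and 3.14 ± 0.112 FPKM (SD, n = 2 each), a log2 fold change of -0.86 ± 0.116 (SE, limma adjusted p = 0.00307). The sh-LDB1 mean was 47.9% of the control mean. The log2 fold change was -1.03 with a pseudocount of 0.1 and -1.06 with voom on the recovered reads. NUP62, which shares 565 exon bases with ATF5 on the other strand, was at 27.4 to 27.9 FPKM in sh-NC against 15.7 to 16.9 FPKM in sh-LDB1. How much of the ATF5 value comes from such reads was not tested.

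DDIT3 (CHOP), the factor tied to cell death under prolonged stress (ENSG00000175197; chromosome 12, 57516588 to 57521737, minus strand), was at 27.5 and 26.5 FPKM in sh-NC against 34.7 and 35.9 FPKM in sh-LDB1. The sh-LDB1 libraries were the higher pair without overlap. Its log2 fold change was 0.37 ± 0.0457 (SE, limma adjusted p = 0.00224). It shares 355 exon bases with MARS on the other strand, which fell, and 58 with MBD6, which was at 9.47 and 9.6 FPKM in sh-NC against 16.4 and 15.9 FPKM in sh-LDB1.

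**Figure D3:**
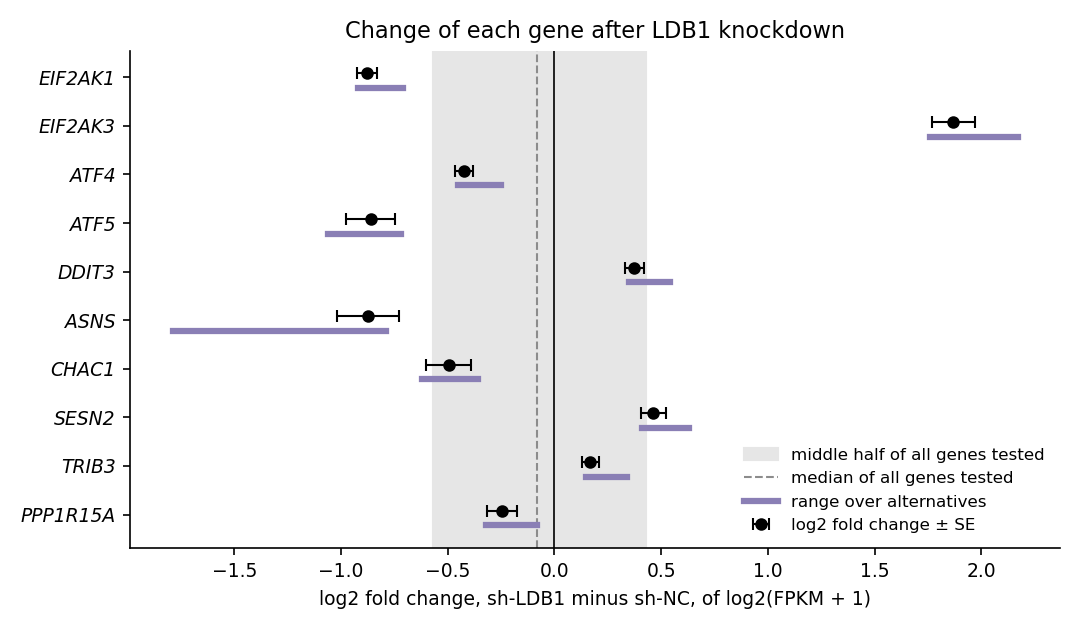
Log2 fold change of each integrated stress response gene, sh-LDB1 minus sh-NC on log2(FPKM + 1), with bars of 1 standard error from limma, a coloured line for the range over the alternatives, and shading from the lower to the upper quartile of all tested genes (-0.57 to 0.43). The 4 genes to the right of 0 are EIF2AK3 at 1.87, SESN2 at 0.46, DDIT3 at 0.37 and TRIB3 at 0.17, and the other 6 lie between -0.88 and -0.25.

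The genes downstream of ATF4 were then compared. They divided, with ASNS, CHAC1 and PPP1R15A lower and SESN2 and TRIB3 higher. ASNS, the asparagine synthetase gene whose promoter stretch is shown above (ENSG00000070669; chromosome 7, 97851677 to 97872542, minus strand), was at 1.64 and 1.87 FPKM in sh-NC against 0.574 and 0.43 FPKM in sh-LDB1. It passed the filter only through the control libraries, and it had only 29 to 123 recovered reads in a library. The sh-LDB1 mean was 28.6% of the control mean. The log2 fold change was -0.87 ± 0.146 (SE, limma adjusted p = 0.00603), and the pseudocount of 1 compresses it at this level. It was -1.63 with a pseudocount of 0.1 and -1.79 with voom on the recovered reads, with adjusted p-values from 2.36e-05 to 0.0295 over 11 alternatives. An annotated gene on the same strand, ENSG00000284707, shares 2415 exon bases with ASNS, and its listed level was 0.302 and 0.316 FPKM in sh-NC against 0.77 and 1.03 FPKM in sh-LDB1. The division of reads between these overlapping genes is therefore uncertain.

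CHAC1, a glutathione-degrading enzyme and a sensitive ATF4 target (ENSG00000128965; chromosome 15, 40952962 to 40956512, plus strand), was at 6.22 and 5.04 FPKM in sh-NC against 3.7 and 3.66 FPKM in sh-LDB1. The groups did not overlap. The log2 fold change was -0.50 ± 0.105 (SE, limma adjusted p = 0.0132). The call was lost without sh-LDB1 replicate 1 (adjusted p = 0.0657) and without sh-LDB1 replicate 2 (adjusted p = 0.0698), in a range from 0.00402 to 0.0698.

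SESN2, a stress-induced sestrin that restrains growth signalling (ENSG00000130766; chromosome 1, 28259518 to 28282491, plus strand), was at 17.8 and 19.3 FPKM in sh-NC against 26.3 and 25.5 FPKM in sh-LDB1. The mean rose 1.4-fold, with a log2 fold change of 0.46 and a standard error of 0.0566 (limma adjusted p = 0.00224). TRIB3, a pseudokinase induced by ATF4 and DDIT3 that feeds back on ATF4 (ENSG00000101255; chromosome 20, 362835 to 397559, plus strand), was at 43.5 and 43.5 FPKM in sh-NC against 48.6 and 49.5 FPKM in sh-LDB1. Its groups did not overlap, but its rise of 0.17 on the log2 scale was the smallest change of the 10 (standard error 0.0387, limma adjusted p = 0.0174). That call was lost without a variance trend (adjusted p = 0.0545) and without sh-LDB1 replicate 1 (0.0851) or 2 (0.118), in a range from 0.00229 to 0.118. The value itself was 0.34 with equal summed FPKM and 0.27 with a median of ratios over the tested genes.

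PPP1R15A (GADD34), the phosphatase scaffold that ends the response (ENSG00000087074; chromosome 19, 48872212 to 48876059, plus strand), was at 54.7 and 49.5 FPKM in sh-NC against 45.5 and 42 FPKM in sh-LDB1. The gap between the groups was smaller than the distance between the control replicates. Its log2 fold change of -0.25 (standard error 0.0712, limma adjusted p = 0.0343) passed the threshold in 5 of 12 alternatives. It was -0.08 with equal summed FPKM (adjusted p = 0.368), in a range from 0.00244 to 0.368. It also lost its call with a median of ratios over the tested genes (0.129), with no filter (0.0766), with no variance trend (0.0632), without sh-NC replicate 1 (0.0956) and without sh-LDB1 replicate 1 (0.0651) or 2 (0.163).

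Paralogs of these genes were listed to see whether a family moved as a whole. Of 8 paralogs, 7 were tested, 3 rose and 2 fell, beside 29.9% and 37.4% of all tested genes. PPP1R15B (CReP), the constitutive counterpart of PPP1R15A, was at 25.3 and 27.6 FPKM in sh-NC against 54 and 53.1 FPKM in sh-LDB1 (log2 fold change 0.99 ± 0.0562 SE, limma adjusted p = 0.00026). PPP1R15A accordingly held 68.4% and 64.2% of the summed level of both scaffolds in sh-NC against 45.7% and 44.2% in sh-LDB1. The order of the pair was reversed between the groups.

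CHAC2, which shares the activity of CHAC1, was at 14.8 and 14.9 FPKM in sh-NC against 4.73 and 3.9 FPKM in sh-LDB1 (log2 fold change -1.58 ± 0.0904 SE, limma adjusted p = 0.000264). Both CHAC genes were lower. Among the tribbles, TRIB1 rose (log2 fold change 1.34 ± 0.0612 SE, limma adjusted p = 0.000165) from 4.58 and 4.98 FPKM to 13.5 and 13.8 FPKM. TRIB2 fell (log2 fold change -0.74 ± 0.0496 SE, limma adjusted p = 0.0004), and TRIB3 kept the largest share, 65.8% to 67.5% of the tribbles in every library. Among the sestrins, SESN1 rose by 0.37 (limma adjusted p = 0.00553), SESN3 was under the filter at 0.455 to 0.856 FPKM, and the share of SESN2 stayed between 79.3% and 80.5%.

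Of 12 genes, 4 rose and 5 fell, with a median of 0.02. The list held subunits of eIF2, eIF2B and protein phosphatase 1, and also EIF5, which is none of these and was among those that rose. These counts are close to the shares over all tested genes, 29.9% higher and 37.4% lower, and the count that rose was 2 without sh-LDB1 replicate 2. EIF2B3, a subunit of the exchange factor, fell from 27.2 and 27.6 FPKM to 13.2 and 12.3 FPKM (log2 fold change -1.04 ± 0.0532 SE, limma adjusted p = 0.000206). EIF2S2, the beta subunit of eIF2, fell by 0.63 (limma adjusted p = 0.000518). PPP1CB, a catalytic subunit of the phosphatase, rose by 0.84 (limma adjusted p = 0.000482).

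Over all lists of other pathway genes, 108 of 113 were tested, 41 rose and 43 fell, and the median log2 fold change was 0.03, beside 29.9% higher, 37.4% lower and a median of -0.08 over all tested genes. The plot by list shows each of them. Of 9 partners and regulators of ATF4 that were tested, NUPR1, at 0.12 and 0.0956 FPKM in sh-NC against 2.04 and 2.55 FPKM in sh-LDB1, passed the filter only through sh-LDB1. Of the other 8, 6 were higher and 1 lower, with a median of 0.98. JUN, a bZIP factor of the AP-1 complex, was at 16.5 and 15.2 FPKM in sh-NC against 101.4 and 102.2 FPKM in sh-LDB1 (log2 fold change 2.61 ± 0.0536 SE, limma adjusted p = 6.77e-05). CEBPB and CEBPD, C/EBP factors able to pair with ATF4, rose by 1.98 and 2.23 on the log2 scale from 20.4 and 6.28 FPKM (limma adjusted p = 6.93e-05 and 9.45e-05). The 1 lower gene was CEBPG, also a C/EBP factor and outside the naming rule. It fell from 14.9 and 16.1 FPKM to 6.37 and 6.07 FPKM (log2 fold change -1.19 ± 0.0619 SE, limma adjusted p = 0.000212).

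**Figure D4:**
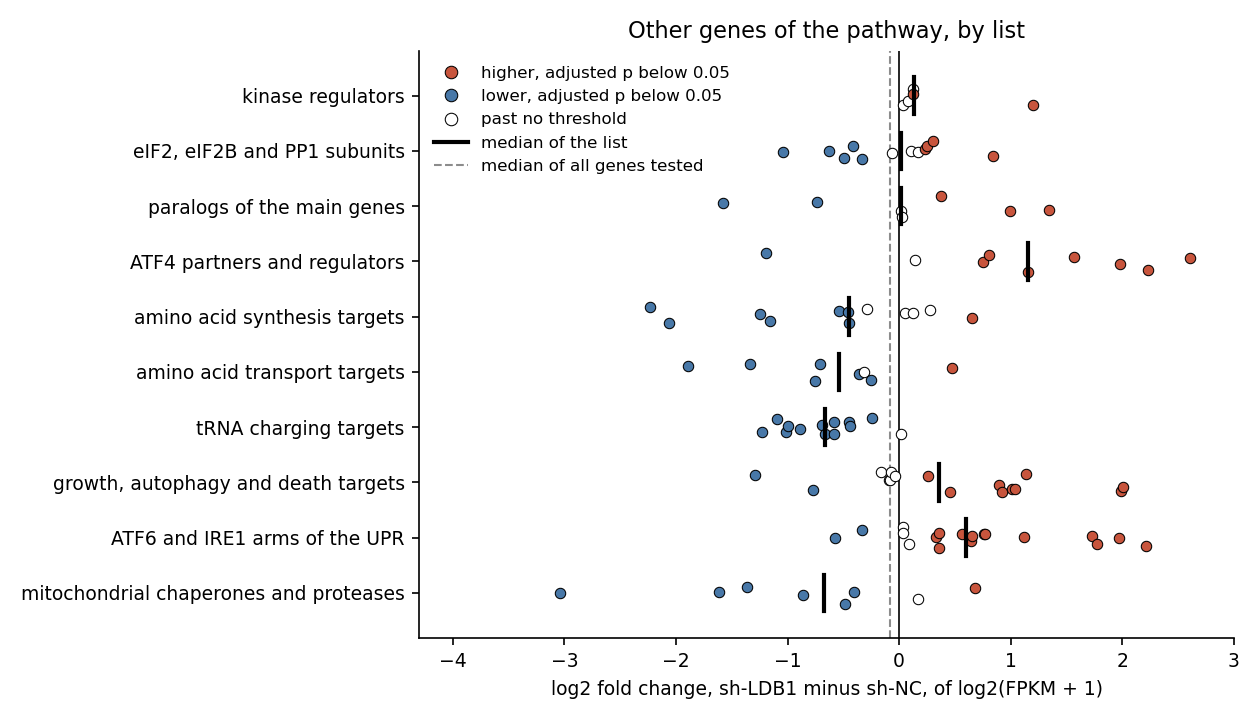
Log2 fold change of every tested gene of the other pathway lists, sh-LDB1 minus sh-NC, with 1 point per gene, coloured by its call, a black bar at the median of each list and a dashed line at the median of all tested genes, -0.08. The tRNA charging, amino acid and mitochondrial lists lie mostly to the left, and the ATF4 partners and the ATF6 and IRE1 arms mostly to the right.

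The amino acid genes known as ATF4 targets were mostly lower. Over the lists of synthesis, transport and tRNA charging together, 25 of 33 fell and 2 rose, with a median of -0.58, beside 37.4% lower and 29.9% higher among all tested genes. With libraries scaled to the same summed FPKM, 23 fell and 6 rose, and 5 rose with a median of ratios over the tested genes. In the synthesis list 7 of 12 fell and 1 rose, and 4 rose under either scaling and 2 without sh-NC replicate 2. PHGDH, the entry enzyme of serine synthesis, was at 222.1 and 219.9 FPKM in sh-NC against 98.9 and 98.1 FPKM in sh-LDB1 (limma adjusted p = 0.000102). PSAT1, the next enzyme of that path, fell from 70.8 and 73.5 FPKM to 17.5 and 15.7 FPKM (log2 fold change -2.06 ± 0.0638 SE, limma adjusted p = 9.57e-05). MTHFD1L, of mitochondrial one-carbon metabolism, fell by 2.23 on the log2 scale, from a mean of 33.6 to 6.36 FPKM (limma adjusted p = 7.21e-05). The 1 that rose before rescaling, outside the naming rule, was ALDH18A1 (log2 fold change 0.65, limma adjusted p = 0.000382). The 4 not called were MTHFD2 (0.12), ALDH1L2 (0.27), PYCR1 (0.05) and PSPH (-0.29).

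In the transport list 6 of 8 fell and 1 rose. SLC7A5 and SLC3A2, the light and heavy chains of one large neutral amino acid transporter, moved in opposite directions. SLC7A5 fell from 66.2 and 64.6 FPKM to 17.2 and 16.7 FPKM (log2 fold change -1.89 ± 0.0424 SE, limma adjusted p = 7.03e-05), and SLC3A2 rose from 72.1 and 69.5 FPKM to 97.7 and 99.7 FPKM (0.47 ± 0.0417 SE, limma adjusted p = 0.000844). SLC7A1, a cationic amino acid transporter, fell by 1.34 (limma adjusted p = 0.00027). In the tRNA charging list 12 of 13 fell and 0 rose, and XPOT, the tRNA exporter, was the one not called, and 1 rose and 11 fell with equal summed FPKM. SARS, LARS and YARS, the synthetases for serine, leucine and tyrosine, fell by 1.09, 1.01 and 0.99 (limma adjusted p from 0.000139 to 0.000218).

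Among these amino acid genes, 25 had a RefSeq promoter and 12 of them, 48%, held TGATGNAA, against 4.46% of all genes. Of the 12 with a match 10 fell and 1 rose (median -0.51), and of the 13 without a match 10 fell and 1 rose (median -0.69). Both sets thus held the same number of genes that fell. These stretches from the list show the shared letters, in capitals, beside those of ASNS and CHAC1, again 5′ to 3′ on the strand of the gene:
MTHFD1L, chr6:150866346-150866375, plus strand: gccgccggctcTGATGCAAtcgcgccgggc
SLC7A1, chr13:29595663-29595692, minus strand: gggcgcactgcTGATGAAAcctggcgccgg
AARS1, chr16:70289675-70289704, minus strand: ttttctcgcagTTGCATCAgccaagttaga
MARS1, chr12:57488053-57488082, plus strand: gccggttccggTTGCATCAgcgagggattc
TARS1, chr5:33440956-33440985, plus strand: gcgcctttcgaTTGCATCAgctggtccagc
The AARS1 match lies before the RefSeq start and the others at or after it, and those of AARS1, MARS1 and TARS1 are on the opposite strand.

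The pattern most like that of ATF4 was sought among the 108 tested pathway genes, by the root mean square distance over the 4 libraries of log2(FPKM + 1) minus each gene's control mean. The nearest was MARS (MARS1 in RefSeq, its promoter shown above), the methionyl-tRNA synthetase, at a distance of 0.0239. It was followed by HSPA9, a mitochondrial chaperone, at 0.0393 and by GPT2, a mitochondrial alanine aminotransferase, at 0.045. Their log2 fold changes were -0.45, -0.40 and -0.46, beside -0.42 for ATF4. With 4 libraries in 2 groups, this measure mainly ranks genes by the size of their group difference.

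Known stress targets outside amino acid supply were examined as well. In the list of growth, autophagy and death targets 16 of 18 were tested, 9 rose and 2 fell, with a median of 0.36, beside 29.9% and 37.4% of all tested genes. SQSTM1 (p62), an autophagy receptor, was at 30.6 and 30.2 FPKM in sh-NC against 123.8 and 126.8 FPKM in sh-LDB1. TNFRSF10B (DR5), a death receptor and DDIT3 target, was at 20.6 and 21 FPKM and at 84.9 and 86.8 FPKM in the same order. ERO1A, an oxidase of the endoplasmic reticulum, rose by 1.04. These 3 genes passed with limma adjusted p-values from 6.77e-05 to 0.000152. The 2 that fell, outside the naming rule, were EIF4EBP1 (log2 fold change -1.29, limma adjusted p = 0.000646) and BBC3 (-0.77, limma adjusted p = 0.00162).

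The ATF6 and IRE1 arms of the unfolded protein response, which run beside EIF2AK3, had 13 of 18 genes higher and 2 lower, with a median of 0.60, beside 29.9% higher and 37.4% lower among all tested genes. With equal summed FPKM 15 were higher and 1 lower, and 1 was lower without sh-LDB1 replicate 1. HERPUD1, EDEM1 and SYVN1, all of the degradation of misfolded proteins, rose by 2.21, 1.73 and 1.77 on the log2 scale (limma adjusted p from 6.93e-05 to 9.12e-05). HERPUD1 went from 10.3 and 10.9 FPKM to 52.6 and 52.5 FPKM. Its promoter was the only 1 of the 18 to hold TGATGNAA, 5.56% against 4.46% of all genes. The endoplasmic reticulum stress response element (ERSE), known for ATF6 and searched on both strands, was found in 6 of the 18 promoters, 33.3%, against 0.0916% of all genes, and in none of the 9 promoters of the main genes. Of those 6 genes 3 rose and 2 fell (median 0.22). Of the 12 without the element 10 rose and 0 fell (median 0.71). An example, from 1 of the 3 genes that rose, is given with the element in capitals:
HSPA5, chr9:125241385-125241414, minus strand: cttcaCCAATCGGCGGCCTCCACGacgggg

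HSPA5 (BiP), the main chaperone of the endoplasmic reticulum, was outside the naming rule and is given for this sequence. Its level was 182.7 and 192.7 FPKM in sh-NC against 402.0 and 413.7 FPKM in sh-LDB1.

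Mitochondrial stress is known to reach EIF2AK1 through OMA1 and DELE1, which are outside the naming rule. OMA1 was at 2.59 and 2.63 FPKM in sh-NC against 2.74 and 2.9 FPKM in sh-LDB1 (log2 fold change 0.08, limma adjusted p = 0.417), and DELE1 differed by 0.03 (limma adjusted p = 0.576). Of 8 mitochondrial chaperones and proteases, 6 were lower and 1 higher, with a median of -0.67, beside 37.4% and 29.9% of all tested genes. With equal summed FPKM 2 were higher. HSPD1, the chaperonin of the matrix, was at 204.6 and 218.5 FPKM in sh-NC against 24.9 and 24.9 FPKM in sh-LDB1. Its fall of 3.04 on the log2 scale was larger than that of any other tested gene of the pathway lists (limma adjusted p = 6.77e-05). HSPE1, its partner, which is annotated within the span of HSPD1 on the other strand and is named for that reason, was at 34.2 and 26.4 FPKM in sh-NC against 11.6 and 10.7 FPKM in sh-LDB1. AFG3L2, a protease of the inner membrane, fell by 1.61. YME1L1, also an inner membrane protease, rose by 0.68 (limma adjusted p = 0.000467).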

How the data were processed

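The deposited table holds FPKM, 1 value per gene and library. The authors filtered reads, mapped them with HISAT and called genes with DESeq2, and the submitters' processing notes name HISAT2 2.0.5 and hg38. The annotation, counter and strand setting are not given in the sources used here. Groups came from the titles. No column of per-sample values was left unmapped. The FPKM already carried a median-of-ratios scaling of 1.0083 in every library. Whole reads were recovered for 97.92% of genes (tolerance 0.01 reads, lengths from GENCODE release 44), and read numbers depend on the length chosen.

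The 13300 genes averaging 1 FPKM or more were tested on log2(FPKM + 1) with limma 3.58.1 in R 4.3.3, eBayes with a trend and Benjamini-Hochberg adjustment, without a block. A fold change on this scale understates that of low genes. Replicates differed beyond sampling noise (chi-square per gene 4.085 in sh-NC and 2.111 in sh-LDB1). Alternatives changed the pseudocount, filter, scaling, block, model, variance trend and libraries.

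The members and lists were chosen with earlier results of these data known. Named were all members, all their paralogs, the 3 genes of smallest p in each list, the 3 genes nearest ATF4, and the 2 most and 2 least abundant markers. The granulocytic markers MPO, CTSG and RNASE2 were not analysed here.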

Additional observations from a re-analysis of the deposited data

How the results depend on the processing

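LDB1 and the integrated stress response genes EIF2AK1, EIF2AK3, ATF4, ATF5, DDIT3 and SESN2 kept their direction and their call under every alternative that gave a value, and CHAC1, TRIB3 and PPP1R15A kept their direction under each of theirs. The call of ASNS, which passed the filter through sh-NC alone, is not counted among these. When genes had to average 5 FPKM, the higher genes numbered 2485 against 3983. The lower members numbered 3 against 6, with ASNS in the 6, because ATF5, ASNS and CHAC1 are below that level. The other counts over all genes, over the members and over all pathway genes together stayed within 1.5 times, while several counts of single lists did not, most of them given beside those lists. EIF2AK2, which never passed the threshold, was at 0.02, and at 0.17 with equal summed FPKM. It was at -0.08 without sh-NC replicate 1, -0.0021 without sh-LDB1 replicate 1 and 0.11 without sh-NC replicate 2. EIF2AK4 was at 0.02, and at 0.16 with equal summed FPKM. It was at -0.01 without sh-NC replicate 1 and without sh-LDB1 replicate 2, and at 0.05 without the others. The cause was not tested.

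With a replicate block, 3890 genes were higher and 4808 lower, and GCN1 lost its call. Of the members 4 were higher and 6 lower, with ASNS among the 6. Same-numbered libraries did not deviate together (correlation 0.0196 over 13300 genes). With 2 libraries per group, that value cannot show whether they shared a culture or a preparation, and the labels do not say. With 2 libraries per group and recovered reads as few as 29, changes in low genes such as ASNS are measured least precisely.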
